A study of Astyanax mexicanus with 78 samples.

Results

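The 200 most brain-specific genes of the Mexican tetra, Astyanax mexicanus, were examined in the brain and in 4 other tissues of cavefish and surface fish. The set was chosen by measured levels in these same libraries. A gene entered it when its median level in brain was at least 100 CPM (its reads scaled by the library's total counts, not corrected for gene length) and its ratio was among the 200 highest. The ratio was the brain median divided by the highest of the other tissues' medians plus 1 CPM. Of 19076 genes in the count tables, 2398 passed the brain level, and 200 of these were kept.

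RNA was sequenced from whole brain, gut, heart, liver and a portion of muscle of 2 populations, the blind cavefish of the Pachón cave and the eyed river-dwelling surface fish, each at 2 age classes, aged (7 to 8 years) and young (about 1 year). No treatment or transgene was named in the labels, and tissue was taken in the first hours after lights on. In brain there were 3 aged and 4 young cavefish libraries, and 4 aged and 4 young surface fish libraries. Gut had 4 libraries in each group except 3 in aged surface fish, and heart, liver and muscle had 4 in each group. One heart library, young cavefish replicate 1, was left out by the rule and from the heart comparisons. Cave heart replicates 5 to 8 carried the word young in one label and aged in another, and were treated as aged. The labels did not say whether libraries with the same number came from the same fish, so results of different tissues may not be independent. Within a tissue, p-values measure the spread between its libraries.

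Genes of this kind mostly serve work that neurons do and other cells do not. Neurons release transmitter at active zones, receive it at receptor clusters held in place by adhesion proteins, and move cargo along axons over tracks of tubulin, and each step uses proteins made at very low levels elsewhere. Some transcription factors are also kept to neurons, among them factors that hold neuronal identity and factors that neurons switch on for a short time after firing. In whole brain, a lower value can mean fewer cells that make a transcript or less of it per cell, and these cannot be told apart in bulk RNA.

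A symbol was at hand for 24 of the 200 genes, and the other 176 are given by their Ensembl identifiers with no role. Most of the named genes are described here, and they covered several of these steps. For release and secretion they included RIMS1, a scaffold of the active zone, scg2b, a secretogranin of dense-core granules, and sybu (syntabulin), which links syntaxin cargo to axonal transport. Receptors and signalling were represented by grm5a, a metabotropic glutamate receptor, cacng2a, an auxiliary subunit of AMPA receptors, gng3, a G protein gamma subunit, and cdk5r2a, an activator of the neuronal kinase CDK5. Adhesion genes were adgrb3, nrxn2b (a neurexin), TENM2 (a teneurin), PCDH10 (a protocadherin), fat2 (an atypical cadherin), rtn4rl2b (of the Nogo receptor family) and prickle2a, a planar polarity protein. The cytoskeletal genes were stmn3 and stmn1b, stathmins that destabilise microtubules, and TUBA1C, an alpha-tubulin. Transcription factors and RNA-binding proteins were npas4a, which neurons induce on activity, myt1la and elavl4. Other names were EEF1A1, a translation elongation factor, si:dkey-33c12.3 and zgc:153615.

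Together the 200 genes took 10.99% of all counts in brain (mean of 15 libraries, range 10.3% to 11.6%). Their share averaged 0.0207% in muscle, 0.0190% in heart, 0.0146% in gut and 0.00977% in liver. In brain the share was 10.9% ± 0.118 in aged cavefish (SD, n = 3), 10.8% ± 0.172 in young cavefish (SD, n = 4), 11.4% ± 0.219 in aged surface fish (SD, n = 4) and 10.9% ± 0.376 in young surface fish (SD, n = 4). The share differed little across the 4 brain groups. Still, every aged surface fish library (11.07% to 11.59%) was above every cavefish library (10.63% to 11.03%). The values in brain and elsewhere describe what the rule selected.

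Brain medians of the 200 genes lay between 114 and 12313 CPM with a median of 309 CPM, and 22 genes were at 1000 CPM or more. The highest median outside the brain lay between 0 and 13.2 CPM, with a median of 0.398 CPM. For 139 genes it was under 1 CPM, and 33 genes had a median of 0 in all 4 other tissues. Where another tissue held the highest remaining level, it was the heart for 62 genes, the gut for 58, muscle for 39 and the liver for 8.

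**Figure D1:**
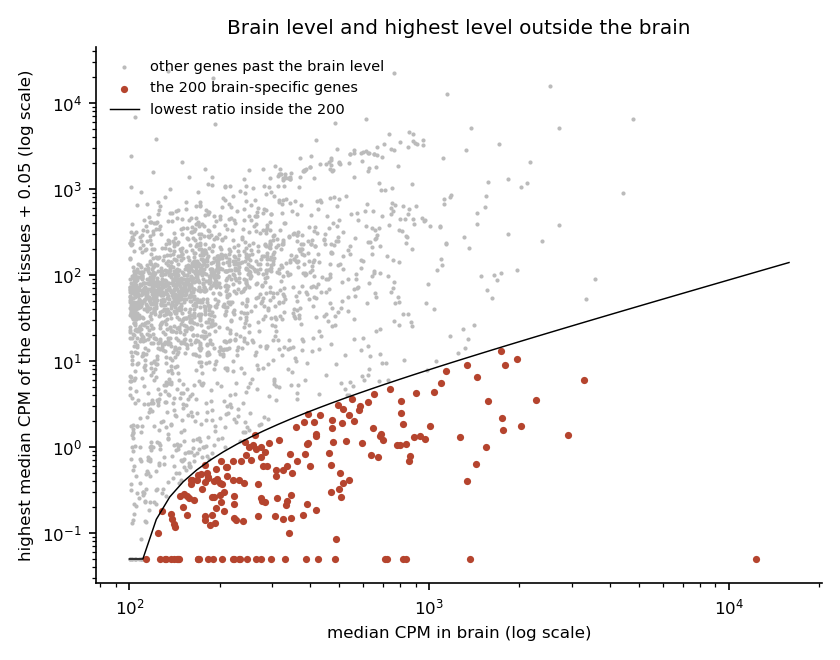
Median CPM in brain (x axis, log scale) against the highest median CPM of gut, heart, liver and muscle, with 0.05 CPM added to the y axis (log scale), for the 2398 genes at 100 CPM or more in brain. Coloured points are the 200 brain-specific genes, grey points the others, and the line marks the lowest ratio inside the set, 112. Of the 200 genes, 33 lie on the bottom edge, with a median of 0 in every other tissue, and some grey points lie there too.

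At the edge of the set the genes differed little. The last 3 inside were cacng2a with a ratio of 113.4, ENSAMXG00000010328 with 113.4 and ENSAMXG00000042403 with 112.3. The first 3 outside were ENSAMXG00000025077 with 112.1, ENSAMXG00000014109 with 111.8 and barhl1b with 111.5.

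The rule chose genes for a gap between brain and the other tissues in these same libraries, so the counts by library describe that choice. For all 200 genes the lowest of 15 brain libraries was above the highest of the 62 other libraries, by at least 10 times for 188 genes and at least 100 times for 53 (with 1 CPM added to the other library). Still, 40 genes reached more than 10 CPM in at least 1 library outside the brain. The narrowest gap was that of sybu, with 479 CPM in its lowest brain library against 200.4 CPM in young cavefish muscle replicate 2.

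ENSAMXG00000030171 stood at the top of the set by a wide margin, with a ratio of 12313. Its level was 12313, 15706 and 13638 CPM in aged cavefish brains and 7834, 7214, 8465 and 13786 CPM in young cavefish brains. In surface fish it was 17934, 10698, 17601 and 14993 CPM in aged brains and 11230, 8879, 7778 and 12948 CPM in young brains. Aged brains were mostly above young ones in both populations, with overlap in each. Each brain library held between 51014 and 168628 reads of it, whereas the 62 other libraries held 17 reads in all and 50 of them held none. The next in rank, ENSAMXG00000030361, had 23 reads over the same 62 libraries and between 1224 and 1538 CPM in every brain library.

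Replicates agreed closely for most of these genes. The SD of log2 CPM within groups had a median of 0.14 over the 200 genes, beside 0.13 over the 2398 genes at the same brain level. The 5 most variable genes were ENSAMXG00000016747, rtn4rl2b, ENSAMXG00000042941, ENSAMXG00000000851 and npas4a. ENSAMXG00000016747 was variable mainly through young surface fish replicate 1, with 21.1 CPM, while the other 14 brain libraries held 185 to 530 CPM.

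Before the comparisons, the brain libraries were checked for transcripts of other tissues. The neuronal marker elavl4, at 138 to 241 CPM in every brain library, is one of the 200 genes and so is no independent check of the tissue. Brain library totals ran from 6266669 to 15015580 counts, within 6266669 to 20118504 over all 78 libraries. Young surface fish brain replicate 3 held 231 CPM summed over 7 photoreceptor genes, against 2.94 to 18.7 CPM in the other young surface fish brains, 1.871 to 2.397 CPM in aged cavefish, 1.19 to 5.77 CPM in young cavefish and 3.14 to 5.34 CPM in aged surface fish. Its rod opsin rho was at 173 CPM, against 0.235 to 6.19 CPM in the other 14 libraries. The same library held the skeletal muscle actin acta1b at 99.1 CPM, against 0.570 to 5.598 CPM in the other 14. None of 20 named phototransduction, pineal and lens genes was among the 200, whose unnamed members could not be checked in this way, and the part of this library in the results was tested only by leaving it out.

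The first comparison asked how cavefish brains differed from surface fish brains, with age class as a covariate. Most of the 200 genes were at similar levels in both populations, and a few differed by more than 2-fold. In cavefish 21 genes were higher and 40 lower at an adjusted p under 0.05 (DESeq2, adjusted over all genes tested), beside 12.7% and 13.6% of all genes. That made 61 of 200 genes, beside 26.3% of all 16563 genes tested and 30.6% of the genes at the same brain level, so the set was called about as often as other genes. Only 6 of the 61 differed by more than 1.5-fold and 3 by more than 2-fold. The median log2 fold change was -0.013 over the 200 genes and -0.0044 over all genes, and the median absolute log2 fold change was 0.12 over the 200 genes, 0.13 over genes at the same brain level and 0.23 over all genes tested.

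Cave and surface libraries did not overlap for 17 genes. Of these, 6 were higher in cavefish (3.44% of all genes tested) and 11 were lower (2.58% of all genes tested). Among all genes at the same brain level 7.63% were separated in either direction.

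The widest gap was that of si:dkey-33c12.3. It was at 356, 292 and 345 CPM in aged cavefish and 416, 330, 360 and 394 CPM in young cavefish, against 1711, 1672, 1699 and 2053 CPM in aged surface fish and 1853, 1575, 2037 and 1743 CPM in young surface fish. No cave library came near any surface library, and age made little difference in either population. The log2 fold change was -2.38 (SE 0.08, DESeq2 adjusted p = 6.18e-177), a level 0.192 times that of surface fish.

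ENSAMXG00000029894 was at 42.7 to 77.1 CPM in the 7 cavefish libraries (median 71.5) against 186 to 288 CPM in the 8 surface fish libraries (median 231). Its log2 fold change was -1.88 (SE 0.13, DESeq2 adjusted p = 1.71e-45). ENSAMXG00000033323 was at 84.6 to 144 CPM in cavefish (median 99.7) against 160 to 335 CPM in surface fish (median 229), with a log2 fold change of -1.16 (SE 0.17, DESeq2 adjusted p = 1.54e-10). These were the other genes lower by more than 2-fold, and in both the highest cave library stayed below the lowest surface library.

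Smaller separated decreases followed. ENSAMXG00000043347 averaged 242 ± 9.70 CPM in cavefish and 361 ± 22.4 CPM in surface fish (SD, n = 7 and n = 8), with a log2 fold change of -0.62 (DESeq2 adjusted p = 3.53e-21). ENSAMXG00000008928 averaged 136 ± 16.99 CPM in cavefish and 191 ± 23.5 CPM in surface fish, with a log2 fold change of -0.55 (DESeq2 adjusted p = 1.47e-13). ENSAMXG00000015087, ENSAMXG00000036327, ENSAMXG00000042622 and ENSAMXG00000043863 were lower by log2 values of -0.48, -0.43, -0.43 and -0.30. All of these kept their calls whichever single library was left out, and only ENSAMXG00000042622 lost its call among aged libraries alone.

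Among the named genes, the stathmin stmn1b was at 1437 to 1676 CPM in cavefish (median 1576) against 1729 to 2090 CPM in surface fish (median 1894). The groups did not touch, and the log2 fold change was -0.31 (SE 0.06, DESeq2 adjusted p = 3.18e-06). Its relative stmn3 was at 207 to 259 CPM in cavefish against 194 to 234 CPM in surface fish, with a log2 difference of 0.05 (DESeq2 adjusted p = 0.683).

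Several other named genes were lower in cavefish with overlapping libraries. RIMS1 was at 333, 346 and 479 CPM in aged cavefish and 450.4, 449.98, 400.3 and 349 CPM in young cavefish, against 422, 546, 556 and 547 CPM in aged surface fish and 573, 568, 494 and 499 CPM in young surface fish. One surface library fell inside the cave range, and the log2 fold change was -0.43 (SE 0.11, DESeq2 adjusted p = 0.000438). TUBA1C and TENM2 were lower by log2 values of -0.24 and -0.21 (DESeq2 adjusted p = 0.00639 and 0.00945). This TENM2 is ENSAMXG00000007446, and another measured gene of that name, ENSAMXG00000005975, was outside the set and its values are not given here.

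The activity-regulated factor npas4a was at 415, 251 and 364 CPM in aged cavefish and 249.7, 418, 353 and 274 CPM in young cavefish, against 370.4, 593, 771 and 480.4 CPM in aged surface fish and 388, 356, 424 and 469 CPM in young surface fish. The groups overlapped, and the top values were all in surface fish. The log2 fold change was -0.54 (SE 0.16, DESeq2 adjusted p = 0.00673), and the call held in every fit that left out 1 library.

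Higher levels in cavefish were led by ENSAMXG00000009419, with 264 to 436 CPM in cavefish (median 301) against 146 to 254 CPM in surface fish (median 164), a log2 fold change of 0.74 (SE 0.12, DESeq2 adjusted p = 3.20e-08). ENSAMXG00000000008 was at 533 to 754 CPM in cavefish (median 593) against 335 to 471 CPM in surface fish (median 391), a log2 fold change of 0.60 (SE 0.08, DESeq2 adjusted p = 3.01e-11). Neither pair of ranges overlapped.

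The secretogranin scg2b was at 1800, 1716 and 1478 CPM in aged cavefish and 1431, 1540, 1536 and 1486 CPM in young cavefish, against 1105, 1154, 1170 and 1159 CPM in aged surface fish and 1265, 1222, 1139 and 1207 CPM in young surface fish. Every cave library was above every surface library, and the log2 fold change was 0.38 (SE 0.06, DESeq2 adjusted p = 1.56e-08). The other separated increases were ENSAMXG00000015643, ENSAMXG00000009222 and ENSAMXG00000004004, with log2 fold changes of 0.38, 0.36 and 0.16. The last lost its call in 4 of the 15 fits without 1 library (young cavefish replicates 1 and 2, young surface fish replicates 3 and 4), with the replicate number as a block and among aged libraries alone, its adjusted p in the full fit being 0.0231 (DESeq2). PCDH10 was higher by 0.15 (DESeq2 adjusted p = 0.00969) with overlapping libraries.

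**Figure D2:**
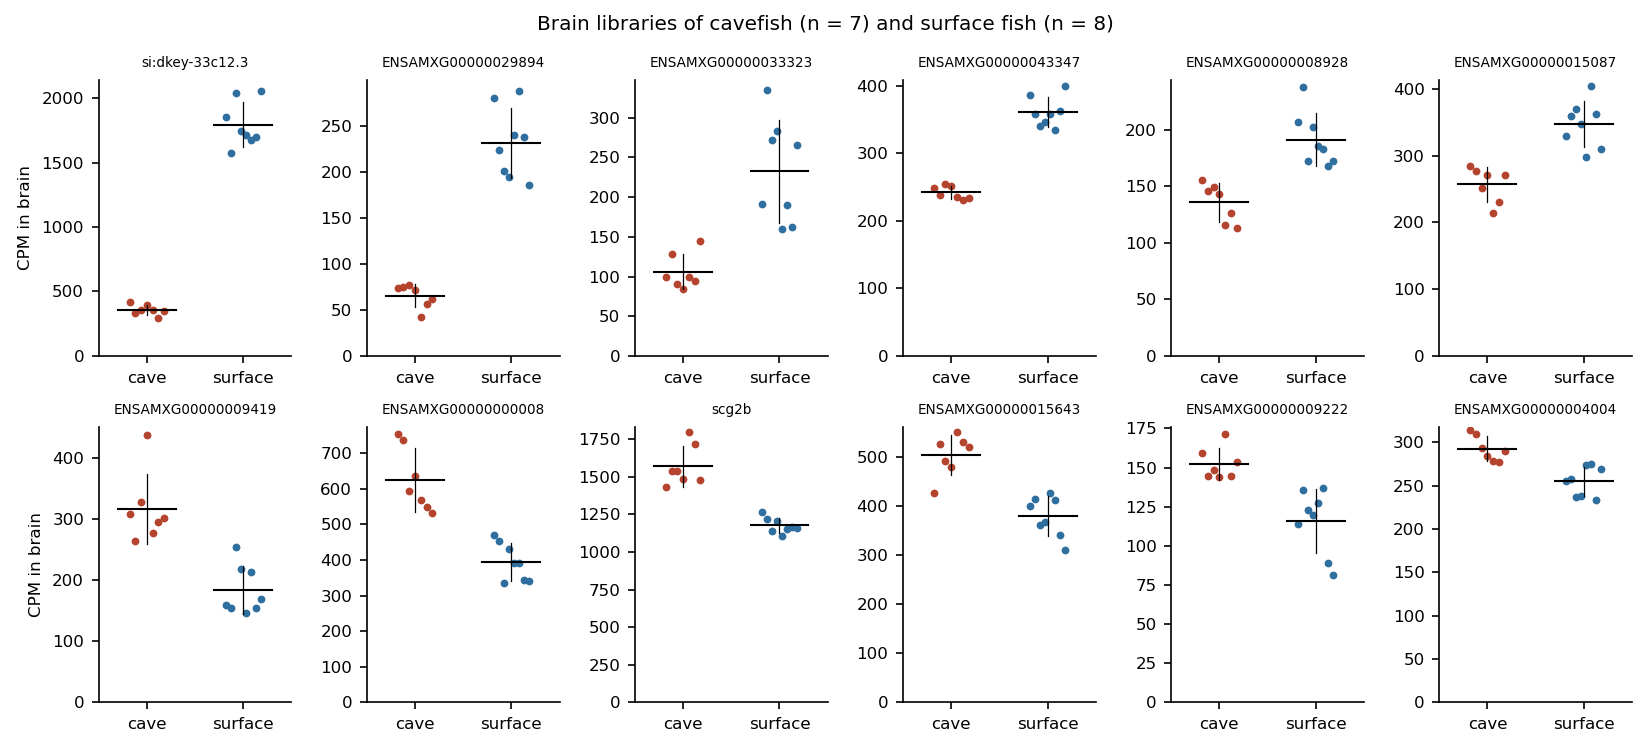
CPM in each brain library of cavefish (left, n = 7) and surface fish (right, n = 8) for the 6 separated genes with the largest decreases in cavefish (top row) and the 6 with increases (bottom row). Points are libraries, horizontal bars means and vertical lines 1 SD, and each y axis starts at 0. In si:dkey-33c12.3 the 7 cave libraries sit between 292 and 416 CPM, all below the 8 surface libraries at 1575 to 2053 CPM.

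No difference passed the test for several core synaptic and neuronal genes. The log2 difference was 0.11 for grm5a (SE 0.06, DESeq2 adjusted p = 0.179), -0.15 for cacng2a (SE 0.11, adjusted p = 0.304), -0.07 for adgrb3 (SE 0.06, adjusted p = 0.379) and -0.07 for nrxn2b (SE 0.08, adjusted p = 0.544). For elavl4 it was 0.06 (SE 0.09, DESeq2 adjusted p = 0.678), for gng3 -0.16 (SE 0.07, adjusted p = 0.104) and for EEF1A1 -0.01 (SE 0.06, adjusted p = 0.918). All these standard errors were small beside a 1.5-fold change.

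Wider lists of named genes gave the setting of these members. Of 31 named genes for synapse adhesion and organisation, 9 were higher and 2 lower in cavefish (DESeq2, median log2 0.13), and of its members TENM2 was lower while adgrb3, nrxn2b and rtn4rl2b were not called. Of 10 tested genes for synaptic vesicles and release, 1 was higher and 4 were lower (median log2 -0.21), RIMS1 among the lower. Of 19 genes of the glutamate synapse, 1 was higher and 5 were lower (median log2 0.01), with neither grm5a nor cacng2a called. Of 47 neural transcription factors, 5 were higher and 8 lower (median log2 -0.03), npas4a among the lower. Beside these counts stands the share over all genes, 12.7% higher and 13.6% lower.

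Among aged libraries alone 13 genes were higher and 28 lower in cavefish, beside 14.8% of all genes tested, and among young libraries alone 25 were higher and 31 lower, beside 18.4% of all genes tested (DESeq2). Leaving out 1 library at a time gave 54 to 66 called genes, with no share over all genes given for those fits. With edgeR 19 were called higher and 39 lower, 58 in all, beside 25.6% of the genes it tested.

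The next comparison asked how aged surface fish brains differed from young ones. In aged surface fish 16 of the 200 genes were higher and 8 lower (DESeq2), 12% of the set beside 6.14% of the 16024 genes tested and 7.8% of the genes at the same brain level. By direction, 2.95% of all genes tested were higher and 3.2% lower. Of the called genes 7 passed 1.5-fold and 0 passed 2-fold, with no such count over all genes. The median absolute log2 fold change was 0.14 over the 200 genes, 0.14 over genes at the same brain level and 0.22 over all genes tested. The median log2 fold change was 0.0027 over the 200 genes and 0.0035 over all genes. Aged and young libraries were separated for 15 genes that were higher with age (4.99% of all genes tested) and 8 that were lower (6.53%), beside 13.2% separated in either direction among genes at the same brain level.

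ENSAMXG00000043707 showed the largest increase, with 405, 453, 392 and 287 CPM in aged surface fish against 247, 197, 256 and 171 CPM in young surface fish. All aged libraries were above all young ones, and the log2 fold change was 0.85 (SE 0.16, DESeq2 adjusted p = 2.81e-05). ENSAMXG00000038674 was at 292, 282, 283 and 244 CPM in aged surface fish against 213, 176, 142 and 182 CPM in young surface fish, a log2 fold change of 0.66 (SE 0.14, DESeq2 adjusted p = 0.000148). ENSAMXG00000031566 was at 184, 194, 198.4 and 198.4 CPM in aged surface fish against 146, 158, 125 and 131 CPM in young surface fish, a log2 fold change of 0.50 (SE 0.11, DESeq2 adjusted p = 0.000773). The aged libraries of this gene were nearly equal to each other. ENSAMXG00000032650 averaged 1125 ± 53.7 CPM in aged surface fish and 875 ± 63.8 CPM in young surface fish (SD, n = 4 each), a log2 fold change of 0.40 (SE 0.09, DESeq2 adjusted p = 0.000542).

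Of the named genes, prickle2a was at 408, 446, 483 and 413 CPM in aged surface fish against 359.8, 337, 294 and 292 CPM in young surface fish. The groups were separated, and the log2 fold change was 0.48 (SE 0.12, DESeq2 adjusted p = 0.00278). The neuronal zinc-finger factor myt1la was at 285, 332, 279 and 273 CPM in aged surface fish against 237, 247, 236 and 249 CPM in young surface fish, again with no overlap, a log2 fold change of 0.31 (SE 0.08, DESeq2 adjusted p = 0.00748). The leading gene of the set, ENSAMXG00000030171, was higher in aged surface fish by a log2 value of 0.63 (SE 0.20, DESeq2 adjusted p = 0.0312) with overlapping libraries, and kept its call in 3 of 8 fits without 1 library.

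The lowest adjusted p among the decreases was that of ENSAMXG00000041708, with 128, 116, 105 and 102 CPM in aged surface fish against 188, 185, 175 and 166 CPM in young surface fish. The log2 fold change was -0.63 (SE 0.10, DESeq2 adjusted p = 4.98e-08). ENSAMXG00000021601 was at 196, 160.0, 148 and 167 CPM in aged surface fish against 229, 256, 255 and 263 CPM in young surface fish, a log2 fold change of -0.54 (SE 0.10, DESeq2 adjusted p = 4.79e-06). ENSAMXG00000004089 was at 162, 137, 106 and 112 CPM in aged surface fish against 179, 210.4, 182 and 196 CPM in young surface fish, a log2 fold change of -0.53 (SE 0.13, DESeq2 adjusted p = 0.00201). In each of these genes the highest aged library was below the lowest young library.

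In other genes the decrease was deepest in aged surface replicates 7 and 8. ENSAMXG00000010767 was at 172, 174, 112 and 85.6 CPM in aged surface fish against 186, 249.97, 227 and 234 CPM in young surface fish, a log2 fold change of -0.69 (DESeq2 adjusted p = 0.0109). ENSAMXG00000013026 was at 284, 336, 192 and 186 CPM in aged surface fish against 339, 392, 390.2 and 386 CPM in young surface fish, a log2 fold change of -0.56 (DESeq2 adjusted p = 0.0157). All 4 aged libraries were below all young ones in both genes, with replicates 5 and 6 nearer to them. The call of ENSAMXG00000010767 was lost without young replicate 2, young replicate 4 or aged replicate 7, and that of ENSAMXG00000013026 without young replicate 2, 3 or 4 or aged replicate 7.

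The immediate early genes, which neurons switch on after activity, were given as a list because npas4a belongs to it. Of 14 measured, 4 were higher in aged surface fish and 0 lower (fosab, junba, btg2 and junbb, DESeq2), with a median log2 fold change of 0.94, beside 2.95% of all genes higher. In cavefish 0 of 14 were called in either direction by DESeq2 (median log2 -0.12, beside 2.27% of all genes called). The interaction was called for 0 positive and 3 negative of the 14 (DESeq2, median log2 -1.06), beside 2.37% and 2.2% of all genes. The values of npas4a in aged surface fish, given above, spread from 370.4 to 771 CPM, and its log2 difference from young surface fish was 0.49 (DESeq2 adjusted p = 0.142). Beside the 4 list genes that were higher, npas4a itself was not called in this comparison.

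The count in surface fish changed when single libraries were left out. It was 11 without aged replicate 7, 14 without young replicate 2 and 11 without young replicate 4. It was 9 without young replicate 3, the library with the photoreceptor and muscle transcripts. No share over all genes is given for these fits, so the changes are not shown to be particular to the set. With edgeR 4 genes were called higher and 3 lower, beside 2.18% of the genes it tested. The 7 genes called by edgeR were ENSAMXG00000043707, ENSAMXG00000038674, ENSAMXG00000031566, ENSAMXG00000032650, ENSAMXG00000041708, ENSAMXG00000021601 and ENSAMXG00000004089, and these and prickle2a kept their DESeq2 calls in every fit without 1 library.

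In cavefish the same comparison had 3 aged libraries, beside 4 in surface fish, and called 19 genes, mostly decreases. In aged cavefish 4 genes were higher and 15 lower (DESeq2), 9.5% of the set beside 2.27% of the 13158 genes tested and 4.34% of the genes at the same brain level. By direction, 1.28% of all genes tested were higher and 0.988% lower. Of the 19 genes 1 passed 1.5-fold, with no such count over all genes. The median absolute log2 fold change was 0.11 over the 200 genes, 0.09 over genes at the same brain level and 0.13 over all genes tested. The median log2 fold change was -0.0099 over the 200 genes and -0.0049 over all genes. Libraries were separated for 21 genes higher with age (6.47% of all genes tested) and 37 lower (8.66%), beside 21.9% separated in either direction among genes at the same brain level.

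The clearest change was in fat2, an atypical cadherin that in mice is made by cerebellar granule cells. It was at 423, 435 and 393 CPM in aged cavefish against 671, 608, 680.2 and 638 CPM in young cavefish. The groups were far apart relative to their spread, 417 ± 21.9 CPM in aged cavefish (SD, n = 3) and 649.6 ± 32.8 CPM in young cavefish (SD, n = 4). The log2 fold change was -0.62 (SE 0.07, DESeq2 adjusted p = 6.53e-16). In surface fish fat2 was at 469.8, 606, 414 and 419 CPM in aged brains against 513, 590.4, 474 and 549.7 CPM in young brains, with overlap and a log2 difference of -0.12 (DESeq2 adjusted p = 0.660).

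Several genes without a name moved in the same way in cavefish. ENSAMXG00000038189 was at 388, 408 and 437 CPM in aged cavefish against 601, 689, 638 and 551 CPM in young cavefish, a log2 fold change of -0.57 (SE 0.10, DESeq2 adjusted p = 4.17e-06). ENSAMXG00000002320 was at 229.9, 215 and 231.6 CPM in aged cavefish against 334, 314, 362 and 289.8 CPM in young cavefish, a log2 fold change of -0.51 (SE 0.09, DESeq2 adjusted p = 1.02e-05). ENSAMXG00000002323 was at 145, 141 and 153 CPM in aged cavefish against 217, 201, 208 and 190.2 CPM in young cavefish, a log2 fold change of -0.46 (SE 0.08, DESeq2 adjusted p = 1.40e-05). In all of these every aged library was below every young library.

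ENSAMXG00000041140 had the tightest groups, 325, 327 and 329 CPM in aged cavefish against 409, 419.7, 417 and 436 CPM in young cavefish, a log2 fold change of -0.34 (SE 0.06, DESeq2 adjusted p = 1.28e-05). ENSAMXG00000010931 was at 743, 633 and 586 CPM in aged cavefish against 874, 909.7, 1216 and 938 CPM in young cavefish, a log2 fold change of -0.57 (SE 0.12, DESeq2 adjusted p = 0.000453).

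One gene changed with age in both populations. ENSAMXG00000008956 was at 385, 366 and 339 CPM in aged cavefish against 238, 266, 284 and 244 CPM in young cavefish, a log2 fold change of 0.51 (SE 0.09, DESeq2 adjusted p = 3.40e-06). In surface fish it was at 315, 302, 308 and 327 CPM in aged brains against 241, 283, 231 and 202 CPM in young brains, a log2 fold change of 0.43 (SE 0.12, DESeq2 adjusted p = 0.0120). Aged libraries were above young ones in each population with no overlap. The surface call was lost without young replicate 3, young replicate 4 or aged replicate 7.

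The cavefish count was 10 without aged replicate 6 and 7 without aged replicate 7, with no share over all genes given for these fits. With edgeR 1 gene was called higher and 5 lower, beside 0.296% of the genes it tested. Those 6 genes, fat2, ENSAMXG00000038189, ENSAMXG00000002320, ENSAMXG00000002323, ENSAMXG00000041140 and ENSAMXG00000008956, kept their DESeq2 calls in every fit without 1 library.

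**Figure D3:**
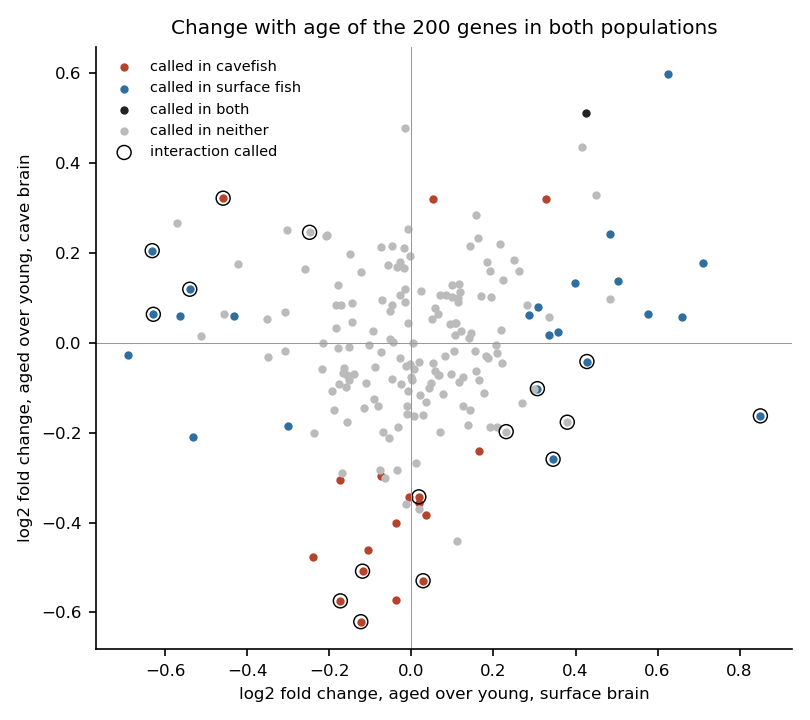
Log2 fold change of aged over young brains in cavefish (y axis) against surface fish (x axis) for each of the 200 genes, from DESeq2. Colours mark genes called in cavefish, in surface fish, in both or in neither, and open circles mark genes whose change with age differed between the populations. One gene, ENSAMXG00000008956, is called in both, at 0.51 in cavefish and 0.43 in surface fish.

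Across the set the 2 age comparisons, which share no libraries, called 42 genes between them. Of these, 1 gene was called in both, beside 0.244% of all genes tested in both. The fitted changes had the same sign in 104 of 200 genes (52.0%), 50 higher and 54 lower in both populations, beside 1069 of 2398 genes (44.6%) at the same brain level.

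Whether the change with age differed between populations was tested directly with the interaction term, the cavefish change minus the surface fish change. It was called for 16 genes, 5 positive and 11 negative (DESeq2), 8.0% of the set beside 4.58% of the 14485 genes tested and 6.26% of the genes at the same brain level. Over all genes tested 2.37% were positive and 2.2% negative. The median log2 interaction was -0.06 over the 200 genes, -0.05 over genes at the same brain level and -0.01 over all genes.

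ENSAMXG00000043707 had the largest value among the 6 with the lowest adjusted p. Its levels were 373, 322 and 295 CPM in aged cavefish against 348, 359, 415 and 373 CPM in young cavefish, a log2 difference of -0.16, beside the increase of 0.85 in aged surface fish given above. The interaction was -1.02 (SE 0.20, DESeq2 adjusted p = 0.000190). Young surface fish stood apart from the other groups with the lowest levels of this gene.

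ENSAMXG00000042286 was at 214, 195 and 175 CPM in aged cavefish against 214, 221, 258 and 251 CPM in young cavefish. In surface fish it was at 173, 218, 182 and 156 CPM in aged brains against 155, 149.6, 146 and 138 CPM in young brains. The fitted changes had opposite signs, and the interaction was -0.61 (SE 0.15, DESeq2 adjusted p = 0.00331). This gene and ENSAMXG00000043707 were the 2 also called by edgeR, beside 1.57% of the genes it tested.

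ENSAMXG00000009126 was at 222, 224 and 229 CPM in aged cavefish against 197, 172, 189.7 and 170.4 CPM in young cavefish. In surface fish it was at 260.03, 235, 131 and 159.9 CPM in aged brains against 259.9, 282, 286 and 273 CPM in young brains. Every aged cavefish library was above every young one, while aged surface fish were spread widely, and the interaction was 0.78 (SE 0.21, DESeq2 adjusted p = 0.0121). For ENSAMXG00000041708 the interaction was 0.69 (DESeq2 adjusted p = 0.0150), for ENSAMXG00000024826 -0.56 (adjusted p = 0.0118) and for ENSAMXG00000041140 -0.36 (adjusted p = 0.00265). The call of ENSAMXG00000041708 was lost without aged cavefish replicate 7 or 8, and that of ENSAMXG00000024826 without aged cavefish replicate 7. Of the named genes with a call in 1 population, fat2 had an interaction of -0.50 (SE 0.15, DESeq2 adjusted p = 0.0284) and myt1la -0.41 (SE 0.13, adjusted p = 0.0333), whereas for prickle2a it was -0.25 (SE 0.16, adjusted p = 0.419).

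The interaction count changed when any of several single libraries was left out, with no share over all genes given for these fits. Without aged cavefish replicates 6, 7 or 8 it was 8, 6 or 7, without young cavefish replicate 3 it was 6, without aged surface fish replicate 6 it was 25 and without aged surface fish replicate 7 it was 9, while without young surface fish replicates 3 or 4 it was 8 or 6.

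**Figure D4:**
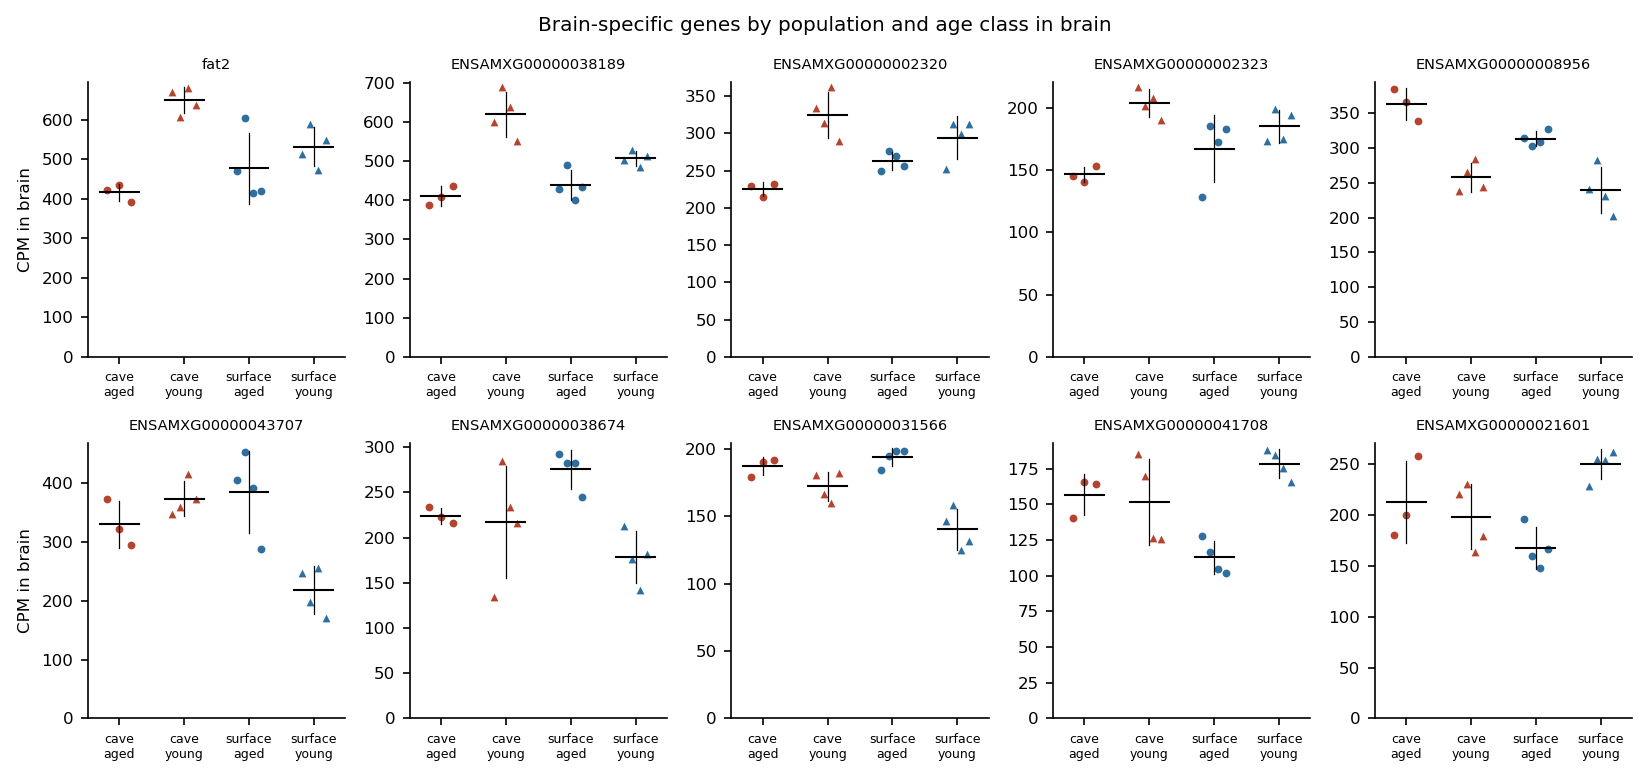
CPM in each brain library for 10 genes called with age in cavefish or surface fish, by group (aged and young cavefish, aged and young surface fish, with 3, 4, 4 and 4 libraries). Points are libraries, horizontal bars means and vertical lines 1 SD, and each y axis starts at 0. In fat2 the aged cavefish libraries lie at 393 to 435 CPM, below the young cavefish libraries at 608 to 680.2 CPM, and the surface fish groups overlap.

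Outside the brain the 200 genes were measured near the floor of detection, and the tests reached only part of them. DESeq2 gave an adjusted p in the cave and surface comparison for 137 of the 200 genes in gut, 135 in heart, 129 in muscle and 64 in liver, so the counts below cover genes with enough reads and not the whole set. The highest medians were those of ENSAMXG00000002420, ENSAMXG00000032604 and ENSAMXG00000005704 in gut, ENSAMXG00000010573, ENSAMXG00000015426 and TUBA1C in heart, ENSAMXG00000017919, ENSAMXG00000037987 and ENSAMXG00000005704 in liver, and stmn1b, TUBA1C and ENSAMXG00000000039 in muscle. The muscle median of stmn1b, 13.2 CPM, was the highest of any gene in any of these tissues.

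Cavefish differed from surface fish in 17 genes in gut (4 higher, 13 lower), 12.4% of those tested beside 13.2% of all genes tested (6.04% higher, 7.17% lower). In heart it was 17 genes (10 higher, 7 lower), 12.6% beside 11.5% (6.57% higher, 4.89% lower). In liver 11 genes were called (8 higher, 3 lower), 17.2% beside 8.1% (5% higher, 3.1% lower), and in muscle 8 (2 higher, 6 lower), 6.2% beside 6.8% (3.37% higher, 3.43% lower). These calls were made by DESeq2. The edgeR filter kept fewer of these genes. Of those kept, edgeR called 7 of 44 in heart, 4 of 45 in gut, 3 of 32 in muscle and 0 of 8 in liver. Over all genes it tested, the shares called were 5.68%, 7.88%, 3.44% and 3.47% in the same order. In liver 21 of the 200 genes were at an unadjusted p under 0.05 with DESeq2, beside 2487 of all 19076 genes of the tables. This count takes in genes with no adjusted p. With edgeR it was 3 of the 8 kept, beside 1409 of the 9440 genes it tested.

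Some genes had far larger fold changes outside the brain than in it. Most of those described below were picked for a low adjusted p in another tissue. Near the floor, every DESeq2 call between populations passed 2-fold. This held for 8 of 8 muscle calls, 11 of 11 liver calls, 17 of 17 heart calls and 17 of 17 gut calls. In brain it held for 3 of 61. The choice thus favoured large fold changes, so their size cannot be set against that in brain. ENSAMXG00000017919 was at 1057 to 1362 CPM in cavefish brain (median 1167) against 1330 to 1725 CPM in surface fish brain (median 1494), a log2 fold change of -0.35 (SE 0.08, DESeq2 adjusted p = 8.53e-05). In gut it was at 0.505 to 1.61 CPM in cavefish (median 0.914) against 3.67 to 15.2 CPM in surface fish (median 7.67), a log2 fold change of -2.90 (SE 0.38, DESeq2 adjusted p = 7.33e-12). The gut ranges did not overlap, though in CPM the medians lay further apart in brain. The same direction was called in heart (log2 -2.87, DESeq2 adjusted p = 4.92e-05) and in muscle (log2 -3.74, DESeq2 adjusted p = 2.08e-11), while in liver it was at 1.80 to 54.2 CPM in cavefish against 0.775 to 81.7 CPM in surface fish and was not called (DESeq2 adjusted p = 0.341).

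ENSAMXG00000008928, lower in cavefish brain by -0.55 as given above, was at 0 to 0.242 CPM in cavefish heart against 0.302 to 2.69 CPM in surface fish heart (DESeq2 adjusted p = 1.04e-06). In muscle it was at 0 to 0.347 CPM in cavefish against 0.381 to 3.85 CPM in surface fish (DESeq2 adjusted p = 1.43e-07). Neither tissue had overlapping libraries, though a few reads per library decide these values.

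The gene with the widest gap in brain, si:dkey-33c12.3, was also lower in cavefish muscle, with 1.19 to 3.09 CPM (median 1.83) against 3.71 to 21.2 CPM in surface fish muscle (median 6.52), a log2 fold change of -2.45 (SE 0.33, DESeq2 adjusted p = 2.09e-11). It was not called in heart, with 0.381 to 3.84 CPM in cavefish against 1.34 to 4.88 CPM in surface fish (log2 0.04, DESeq2 adjusted p = 0.972). In gut the fitted difference was in the other direction, 1.06 (SE 0.45, DESeq2 adjusted p = 0.105), and was not called.

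Other genes were higher in cavefish outside the brain. ENSAMXG00000005704 was at 1.96 to 14.3 CPM in cavefish muscle (median 8.29) against 0.0761 to 1.54 CPM in surface fish muscle (median 0.733), a log2 fold change of 3.09 (SE 0.45, DESeq2 adjusted p = 1.22e-09). In heart its log2 fold change was 1.57 (DESeq2 adjusted p = 0.00208), and in brain it was 0.09 (DESeq2 adjusted p = 0.282), with 528 to 634 CPM in cavefish against 471 to 581 CPM in surface fish. ENSAMXG00000000039 was at 2.41 to 7.54 CPM in cavefish heart (median 6.01) against 0.555 to 2.09 CPM in surface fish heart (median 0.682), a log2 fold change of 2.53 (SE 0.40, DESeq2 adjusted p = 4.65e-08). ENSAMXG00000041709 in heart had a log2 fold change of 2.86 (SE 0.46, DESeq2 adjusted p = 8.18e-08), with 1.56 to 9.32 CPM in cavefish against 0.363 to 1.81 CPM in surface fish. In brain ENSAMXG00000041709 was called lower in cavefish.

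ENSAMXG00000040233 was at 10.3, 0.183 and 27.9 CPM in aged cavefish gut replicates 6 to 8 and at 0.216 CPM in replicate 5. In young cavefish gut it was at 37.3, 10.3, 19.4 and 11.8 CPM, against 0 to 0.298 CPM in surface fish gut. Most cavefish guts were thus well above surface fish, and some lay within their range. The DESeq2 adjusted p was 8.41e-13. In brain the gene was at 421 to 587 CPM in cavefish against 469 to 699 CPM in surface fish, with no call (log2 -0.17, DESeq2 adjusted p = 0.220).

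ENSAMXG00000018634 was singled out after its values were seen, since it was called in all 5 tissues with opposite directions in brain and elsewhere. Mixed directions were not particular to it. Of 12 genes called between populations in brain and another tissue, 6 had the same direction in every tissue called. No such count was made over all genes. It was higher in cavefish brain by a log2 value of 0.23 (623 to 761 CPM in cavefish against 472 to 624 CPM in surface fish, DESeq2 adjusted p = 0.000309). It was lower in cavefish by -3.37 in liver, -1.999 in muscle, -1.90 in heart and -1.86 in gut (DESeq2 adjusted p = 0.0172, 0.0252, 0.00611 and 0.00268). Libraries overlapped in every tissue, and its heart level was 0.548 to 2.35 CPM in cavefish against 1.13 to 16.4 CPM in surface fish.

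In all, 40 of the 200 genes were called between populations in at least 1 tissue other than brain, 9 in at least 2 and 3 in at least 3, with 166 of the 200 tested in at least 1 of them. Over all 16946 genes tested there the shares were 24.8%, 7.02% and 2.41%. Tissues may share fish, so calls of a gene in several tissues may not be independent.

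**Figure D5:**
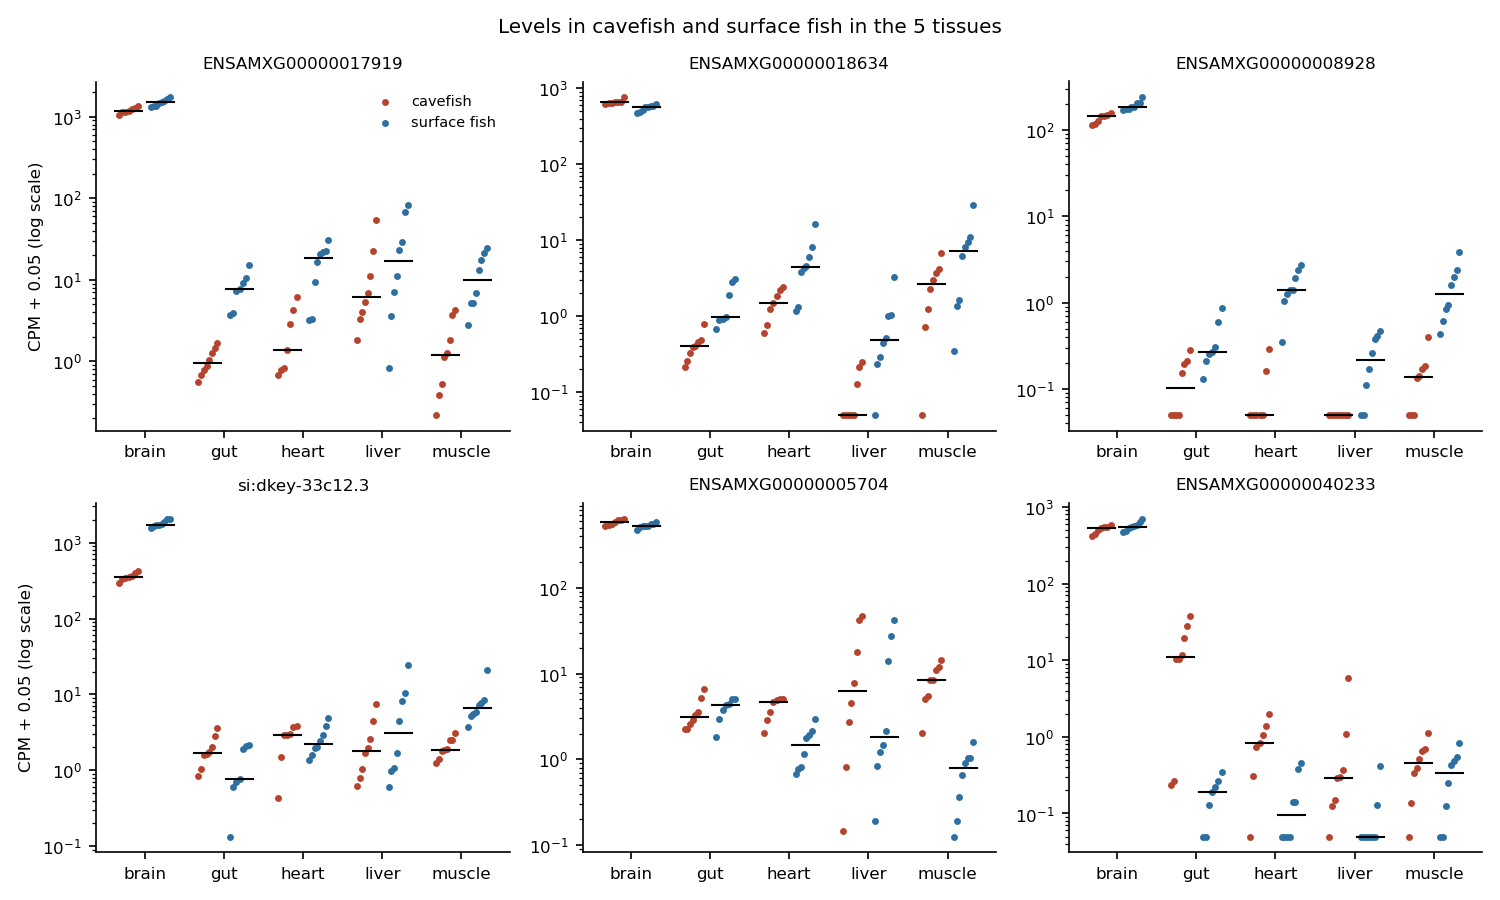
CPM plus 0.05 (log scale) in cavefish (left of each pair) and surface fish (right) in brain, gut, heart, liver and muscle for 6 of the 200 genes. Points are libraries and bars medians. ENSAMXG00000017919 lies at 0.505 to 1.61 CPM in cavefish gut, below the surface fish gut at 3.67 to 15.2 CPM, whereas ENSAMXG00000005704 lies at 1.96 to 14.3 CPM in cavefish muscle, above surface fish muscle at 0.0761 to 1.54 CPM.

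Age comparisons outside the brain called 4 or fewer of these genes in each fit, and only part of the set was tested. With DESeq2, 0 of 63 tested genes were called in cavefish gut (5.56% of all genes tested) and 3 of 99 in surface fish gut (9.84%). In cavefish heart it was 1 of 99 (0.715%) and in surface fish heart 2 of 121 (2.84%). In liver it was 2 of 10 in cavefish (2.35%) and 4 of 34 in surface fish (5.19%), and in muscle 0 of 110 in cavefish (0.662%) and 2 of 72 in surface fish (4.48%). At an unadjusted p under 0.05, DESeq2 counted 16 of the 200 genes in cavefish gut and 14 in cavefish muscle. Over all 19076 genes of the tables it counted 2776 and 1532. These counts take in genes with no adjusted p. In cavefish gut and muscle edgeR kept 41 and 38 of the 200 genes and called 0 in both (0% and 0.0333% of all genes it tested). Unadjusted, edgeR counted 8 and 4, beside 2141 of 11825 and 1086 of 12015 genes it tested. The 1 call that edgeR shared was in surface fish heart, where it called 0.161% of all genes it tested.

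That gene, ENSAMXG00000036347, was named after its values were seen. It was at 0.0805, 0.0903, 0 and 0.226 CPM in aged surface fish heart against 1.24, 4.39, 3.98 and 5.10 CPM in young surface fish heart (DESeq2 adjusted p = 5.70e-07). The groups were separated, and in cavefish heart the aged libraries held 0.274 to 2.22 CPM and the young ones 0, 0.364 and 4.82 CPM.

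A few libraries outside the brain held more of these transcripts, or of a single gene among them, than most others of their tissue. Young cavefish muscle replicate 2 had 0.0703% of its counts on the 200 genes, and 66.1% of those lay on 5 of them, chosen after their values were seen. These were led by sybu at 200.4 CPM and ENSAMXG00000017776 at 107 CPM. Without its leading 5 genes the share was 0.0239%. Both sybu and ENSAMXG00000017776 also led in other muscle libraries of both populations. These were young cavefish replicate 1 (45.1% on its leading 5), young surface fish replicate 2 (56.4%) and aged cavefish replicate 8 (40.0%). Aged surface fish muscle replicate 6 was different in kind, with 0.0439% of counts spread over 78 genes at 1 CPM or more and only 25.3% on its leading 5. In aged cavefish liver, replicates 6 and 7 held rtn4rl2b at 17.4 and 34.6 CPM and the other 6 cavefish livers held none. This gene was also among the leading 5 in aged surface fish liver replicate 8. The share on the whole set in these cavefish livers, 0.00749% and 0.00798%, was below the liver mean of 0.00977%. Leaving out each of these libraries in turn gave the ranges of calls for muscle and liver listed with the other settings.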

How the data were processed

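Whole tissues were flash-frozen, RNA was extracted with TRIzol and poly-T selected libraries were sequenced. The authors mapped reads with STAR to the Astyanax mexicanus 2.0 assembly with Ensembl release 108 genes and deposited raw read counts per gene, 1 table per tissue. The STAR version, strand setting and treatment of multi-mapping reads are not given in the sources used here.

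From the deposited counts, CPM was computed per library, and genes were chosen as the opening describes. The members and gene lists were chosen with earlier results of these data known. Each tissue was fitted with DESeq2 1.42.0 in R 4.3.3 over all 19076 genes, with its own size factors and filters and Benjamini-Hochberg adjustment, and a gene was called at an adjusted p under 0.05. Age comparisons used 1 population's libraries of 1 tissue, population comparisons used all with age class as a covariate, and the interaction used all brain libraries. Alternatives were edgeR 4.0.16 (quasi-likelihood test), TMM scaling, a filter of 10 counts in 3 libraries, young or aged libraries only, a replicate block and leaving out each library. Adjusted p-values that DESeq2 did not give were left out of counts. Scripts were tested on simulated data.

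Named genes were those with the highest ratios, brain levels and within-group spread, those at the edge, the largest separated changes in brain, the lowest adjusted p in the interaction and in each other tissue, the highest levels there, and members of gene lists. EEF1A1, PCDH10, cdk5r2a, gng3, sybu and zgc:153615 fall outside this rule and were named after their values were seen, because they carry a symbol. Symbols came from a supplementary gene table of the study that pairs 2079 identifiers with names and covers genes that ranked high in another experiment, so the lists hold only genes named there. No sequences or coordinates were used here. Library totals were 6266669 to 20118504 counts, so values under 1 CPM rest on few reads. Young cavefish liver replicate 4 is young in its labels and was headed otherwise in a supplementary table, and was kept as young. One named gene of the set is not reported here.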

Additional observations from a re-analysis of the deposited data

Results flagged for a closer look

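Single libraries apart from the other 3 of their group were looked for in 146 groups of 4 libraries, over 43 genes and the share of counts on the set. There were 7 such values, some of them in the same library. Chance alone gives about 1 in 20 groups, which is close to this share. ENSAMXG00000032650 was low in young cavefish brain replicate 1, at 660.2 CPM with the others at 901 to 930.1 CPM, and in aged surface fish brain replicate 7, at 1046 CPM with the others at 1144 to 1163 CPM. ENSAMXG00000004004 was low in aged surface fish brain replicate 7, at 234 CPM with the others at 269 to 275 CPM. In aged surface fish brain replicate 8, si:dkey-33c12.3 was high, at 2053 CPM with the others at 1672 to 1711 CPM. Young surface fish brain replicate 1 was low for ENSAMXG00000013026, at 339 CPM with the others at 386 to 392 CPM, and for ENSAMXG00000020811, at 186 CPM with the others at 206 to 210.2 CPM. The share of counts on the set was high in aged surface fish muscle replicate 6, at 0.0439% with the others at 0.00985% to 0.0136%.

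The change with age differed between cavefish and surface fish brains, by the test of the interaction, in the 6 genes with the lowest adjusted p. The log2 values, cavefish change minus surface fish change, were -1.02 for ENSAMXG00000043707, -0.36 for ENSAMXG00000041140, -0.61 for ENSAMXG00000042286, -0.56 for ENSAMXG00000024826, 0.78 for ENSAMXG00000009126 and 0.69 for ENSAMXG00000041708. The calls of ENSAMXG00000041708 and ENSAMXG00000024826 were lost without aged cavefish replicate 7, and that of ENSAMXG00000041708 also without aged cavefish replicate 8.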

How the results depend on the processing

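The brain comparison of cavefish and surface fish was the steadiest, with 54 to 66 genes called when 1 library was left out, 58 with edgeR and 57 with a replicate block. Correlations of deviations of same-numbered cavefish and surface fish libraries did not settle whether the replicate numbers pair the libraries. They ran from -0.04 to 0.13 in brain, -0.42 to 0.31 in gut and -0.37 to 0.37 in heart. In liver they ran from -0.46 to 0.49 and in muscle from -0.26 to 0.80, the highest being that of muscle replicate 2. Some were at or below 0 in each tissue. The highest correlation was with the own number in 5 of 7 in brain, 2 of 7 in gut and 1 of 7 in heart. In liver and muscle it was 2 of 8 each. The replicate block moved no count by over 1.5 times except in liver, where 5 genes were called in place of 11. With edgeR the age counts were 6 in cavefish brain and 7 in surface fish brain, and the interaction 2. Outside the brain edgeR called 4, 7, 0 and 3 genes between populations in gut, heart, liver and muscle, of 45, 44, 8 and 32 tested. With age it called 0 in surface fish gut, 0 in cavefish heart, 1 in surface fish heart, 0 in cavefish liver, 0 in surface fish liver and 0 in surface fish muscle. TMM scaling gave 1 in cavefish gut with age. The count filter gave, with age, 1 in cavefish gut, 0 in cavefish heart, 1 in cavefish liver, 1 in surface fish liver, 1 in cavefish muscle and 1 in surface fish muscle, and 7 between populations in liver. Aged libraries alone gave 8 genes between populations in gut and 3 in liver, and young libraries alone 8 in gut, 7 in heart and 14 in muscle, with fewer libraries in each fit. With young cavefish heart replicate 1 kept, the cavefish heart age count was 0. Leaving out 1 library gave 7 to 26 genes with age in cavefish brain, 9 to 31 in surface fish brain and 6 to 25 for the interaction. With age it gave 0 to 3 in cavefish gut, 0 to 5 in surface fish gut, 0 to 6 in cavefish heart, 1 to 4 in surface fish heart, 0 to 3 in cavefish liver, 1 to 7 in surface fish liver, 0 to 1 in cavefish muscle and 1 to 5 in surface fish muscle. Between populations it gave 13 to 22 in gut, 14 to 19 in heart, 8 to 12 in liver and 5 to 11 in muscle. This section gives no share over all genes beside its counts. They therefore do not show whether the set moved more or less than other genes. None of the 60 calls of named genes that were followed through the settings turned its direction, and the other named values were not followed there. Many of these calls were chosen because their groups did not overlap, so a turned direction was unlikely. With edgeR 18 of them were lost and 36 kept, and over the fits without 1 library 48 were lost and 664 kept. The set itself depended on scaling and on the form of the rule. Under TMM-scaled CPM 118 of the 200 genes were chosen again, where 706 genes passed the brain level in place of 2398. The parts of the brain level and of the ratio in this were not separated. With 0.1 CPM added in the ratio 158 were chosen again, 140 with 10 CPM, 175 with means and 199 with the excluded heart library kept. Some settings left fewer libraries or genes, and the cause of a moved count was not tested in any of them.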
